A study of Mus musculus with 22 samples.

Results

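Nesprins, SUN proteins, lamins and emerin form the bridge between the cytoskeleton and the inside of the nucleus. Nesprins sit in the outer nuclear membrane and bind actin filaments, microtubule motors and intermediate filaments on the cytoplasmic side. Their short KASH tails reach into the space between the membranes and are held there by SUN proteins of the inner membrane, and together they are called the LINC complex. SUN proteins in turn touch the lamina, a mesh of A-type and B-type lamins, to which emerin and other proteins with a LEM domain also bind. In an adipocyte, where a large lipid droplet presses the nucleus against the plasma membrane, these proteins hold the nucleus to the cytoskeleton.

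The genes described are Syne1 and Syne2 (nesprin-1 and nesprin-2), Sun1 and Sun2, Lmna, Lmnb1, Lmnb2 and Emd (emerin), 8 of 22328 genes with a symbol on the array. All biological probes that the array files name after them were taken, 12 of 55681 probes, each with its own mm9 position. Syne2 was chosen because an earlier look at the same arrays had put it among the genes most different between hypoxia and normoxia, and the others because they belong to the same structure. The differences between hypoxia and normoxia of these genes are therefore given as a description with intervals, and where it is said how many of these probes lay past a threshold, that count stands beside the share of all probes and supports nothing.

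RNA came from the epididymal white adipose tissue of male C57BL/6JOlaHsd mice, an inbred strain. The hypoxia group was 10 mice kept at 12% oxygen for 6 hours, and the normoxia group was 12 mice kept at 20.9% oxygen for 6 hours. All mice arrived at 10 weeks of age. Fat supplied 10% of dietary energy in their first 3 weeks and 40% in the next 6 weeks, and they were fasted when exposed. The protocols name a low-fat arm once, without saying which mice it held. The Cy5-labelled RNA of each mouse was hybridised against a pool of all samples in Cy3, so a log2 ratio of 0 means the level of the pool, and dyes were not swapped. The tissue is whole fat, and a lower signal can mean fewer cells of a type or less RNA in each cell, which cannot be told apart here.

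Between 15.6% and 76.8% of an array's spots stood well above background in Cy5, and the 4 arrays of slide 1 (hypoxia replicates 5 and 7, normoxia replicates 3 and 5) were the dimmest. Slide 2 carries normoxia replicates 9 and 10 alone, and each of the other 5 slides carries 2 hypoxia and 2 normoxia arrays. All 9 adipocyte markers, among them Adipoq, Plin1 and Lep, were well above background on all 22 arrays. Of the 7 markers of skeletal muscle, Acta1 and Myl1 were above background on all 22 arrays and were tested, the other 5 were not tested, and among those Ckm and Mb were above background on 0 arrays. None of the 6 markers of epididymal epithelium reached the 10 arrays needed for a test. Across all 21442 tested probes 0 passed limma's test at an adjusted p of 0.05 (0%, smallest adjusted p = 0.0818), and 1118 had an unadjusted p under 0.05 (5.21%).

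Syne2 is covered by a pair of probes that lie far apart in the gene. The first, A_51_P210143, is 60 bases long, but its mm9 coordinates, chr12:77022219-77023953, span 1735 bases, so it crosses at least one splice junction and reads spliced RNA. The second, A_55_P1979863, lies at chr12:77211828-77211887, 187874 bases further on. RefSeq has Syne2 on the plus strand, so the second probe lies nearer the end of the transcript. The files assign both to transcript NM_001005510, and no other probe on the array has either sequence. The sequences are printed because the probes read different stretches of this very long transcript and gave different values. Whether the stretch or the probe itself accounts for that was not tested. The junction probe is shown whole and the downstream probe by its first 30 bases, 5′ to 3′, with no base picked out in capitals.
Syne2 junction probe A_51_P210143: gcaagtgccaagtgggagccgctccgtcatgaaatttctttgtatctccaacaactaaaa
Syne2 downstream probe A_55_P1979863, first 30 bases: caggggttggtaaagaaacttggaactatt

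At the junction probe Syne2 was lower in hypoxia. Its log2 ratio ran from -0.73 over a median of -0.03 to 0.17 in the 10 hypoxia mice, and from 0.12 over a median of 0.29 to 0.85 in the 12 normoxia mice. All 10 hypoxia mice lay below the normoxia median, and 9 of them below the lowest normoxia mouse. The groups overlapped through hypoxia replicate 10 alone, at 0.17, which lay above 2 normoxia mice, replicates 3 (0.12) and 10 (0.16). The means were -0.19 ± 0.31 in hypoxia (SD, n = 10) and 0.38 ± 0.25 in normoxia (SD, n = 12). The difference was -0.57 on the log2 scale (SE 0.11, 95% interval -0.80 to -0.34), a 1.48-fold lower ratio. Both channels were well above background on all 22 arrays at this probe, and no spot was saturated.

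The difference lay in the Cy5 channel, which holds each mouse's own RNA. With the channels taken apart after quantile normalization of average intensities, log2 Cy5 was 10.3 ± 0.3 in hypoxia (SD, n = 10) and 10.9 ± 0.2 in normoxia (SD, n = 12), a difference of -0.59. In the Cy3 channel, which holds the same pool on each array, log2 signal was 10.52 ± 0.09 in hypoxia and 10.54 ± 0.09 in normoxia, a difference of -0.02. The pool's signal thus varied far less than that of the mice.

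At the downstream probe the groups overlapped throughout. The log2 ratio ran from -0.44 over a median of 0.16 to 0.82 in hypoxia and from -0.34 over a median of 0.24 to 1.09 in normoxia. The means were 0.23 ± 0.39 in hypoxia (SD, n = 10) and 0.28 ± 0.42 in normoxia (SD, n = 12), and 6 of 10 hypoxia mice lay below the normoxia median. The difference was -0.05 (SE 0.16, 95% interval -0.37 to 0.27), so the interval includes a decrease up to that size as well as an increase. This probe was among the more variable on the array, with a residual SD of 0.41 within groups, at percentile 94.7 of all tested probes. The junction probe had a residual SD of 0.27, at percentile 74.9, and the median over all tested probes was 0.23.

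**Figure D1:**
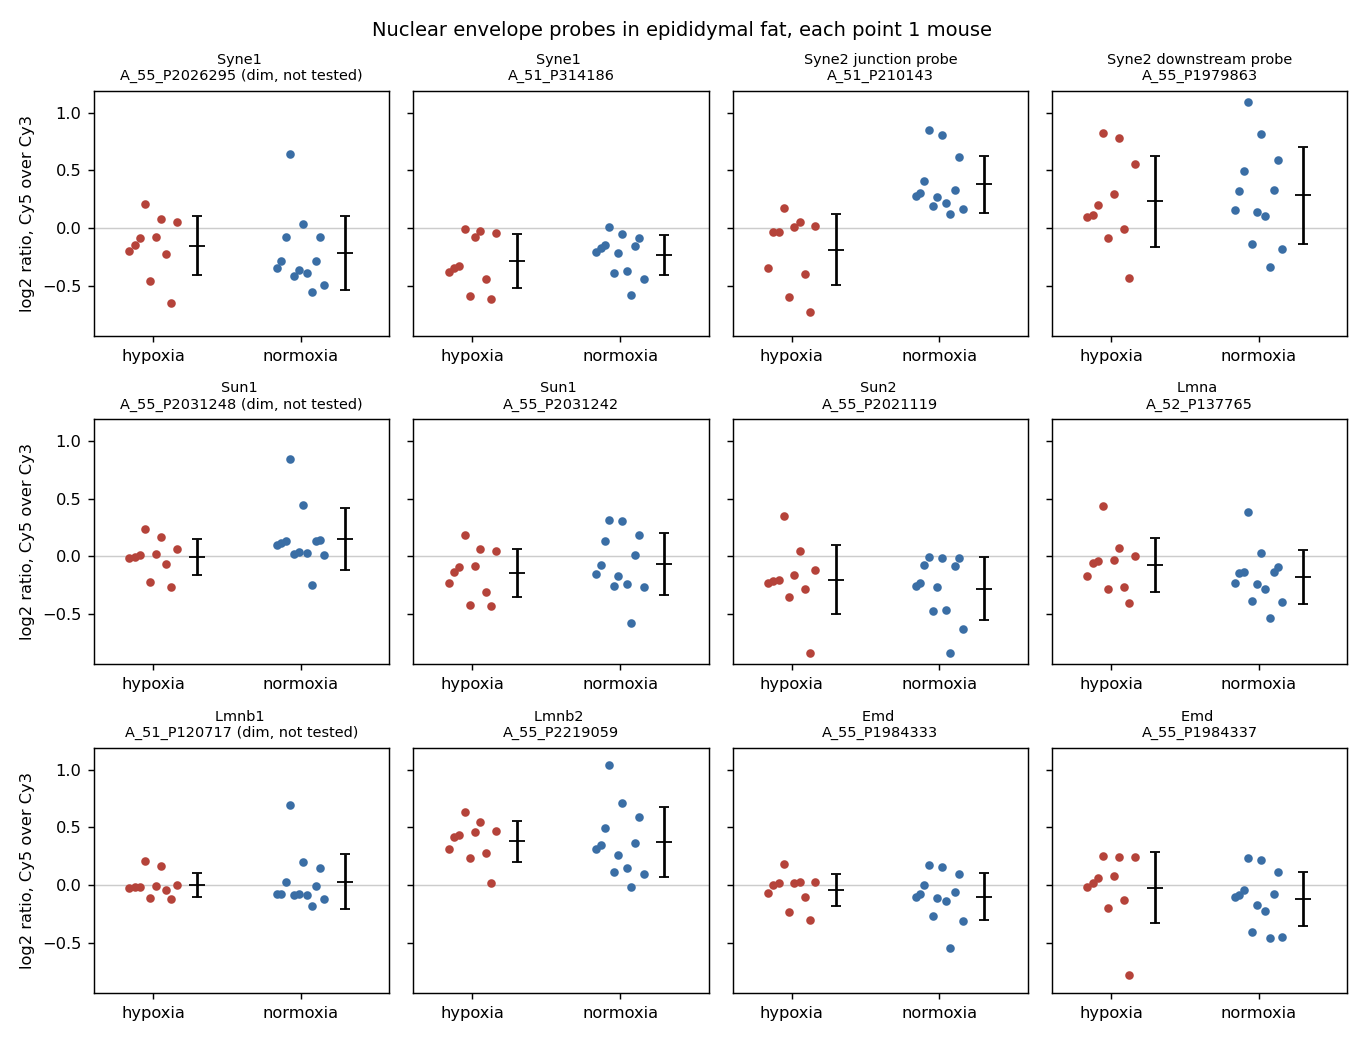
Log2 ratio of Cy5 (the mouse) over Cy3 (the pool) for all 12 probes, 1 point per mouse, with hypoxia (n = 10, red) left of normoxia (n = 12, blue) and the mean and SD as a black bar beside each group. At the Syne2 junction probe 9 of 10 hypoxia mice lie below the lowest normoxia mouse, while the other panels show groups that overlap throughout.

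The lower junction signal was present on each slide that carries both groups. The slide means of the junction probe differed by -0.63 on slide 1, -0.43 on slide 3, -0.18 on slide 4, -1.20 on slide 5 and -0.55 on slide 6, with 2 hypoxia and 2 normoxia mice on each. Their average was -0.60. Syne2 was chosen by its difference on these same arrays, so its sign on each slide is a description and no independent support. At the downstream probe the slide differences ran from -0.34 to 0.20, with 4 of 5 below 0 and a mean of -0.13.

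**Figure D2:**
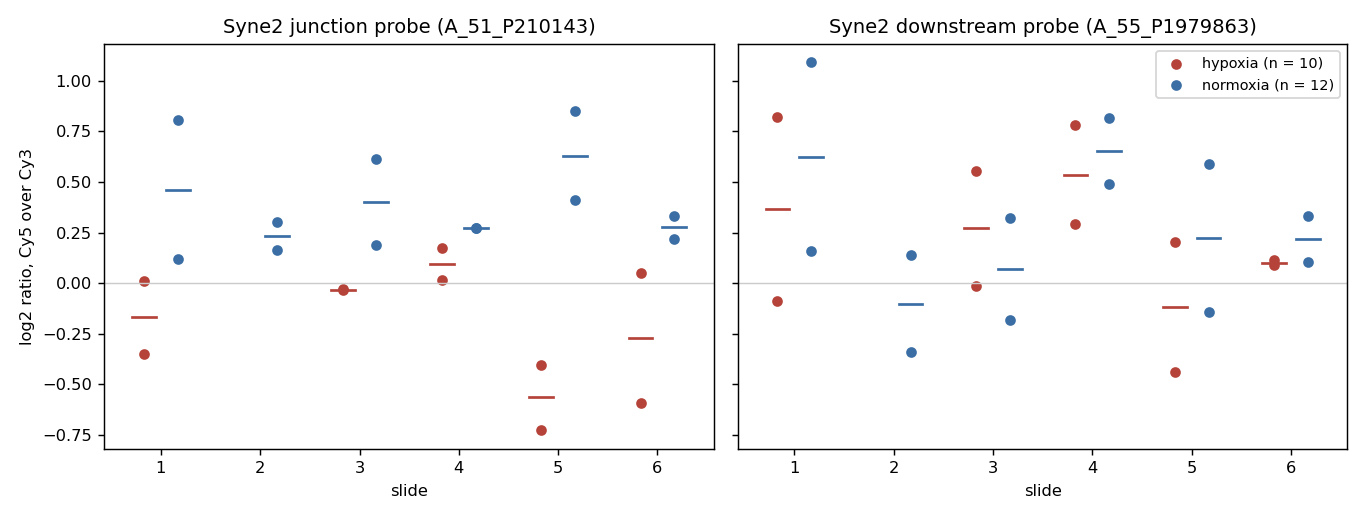
Log2 ratio of both Syne2 probes by slide, 1 point per mouse (some points overlap), hypoxia (red) left of normoxia (blue), with short lines at the mean of each group on a slide. At the junction probe the hypoxia mean lies below the normoxia mean on all 5 slides with both groups, and at the downstream probe on 4 of them.

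The difference between the probes was taken within each mouse. The junction probe minus the downstream probe was -0.42 ± 0.35 in hypoxia (SD, n = 10), from -0.93 to 0.04, and 0.10 ± 0.35 in normoxia (SD, n = 12), from -0.54 to 0.65. The groups overlapped in this measure. The hypoxia minus normoxia difference in it was -0.52 (SE 0.14, 95% interval -0.80 to -0.23). Among 2554 genes with exactly 2 tested probes, 5, Syne2 included, had probes whose differences lay at least as far apart (0.196%). Emerin, the other gene here with a pair of tested probes, had probes 0.04 apart (SE 0.13). Syne2 was chosen for its difference at the junction probe, so its place in this order is a description.

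**Figure D3:**
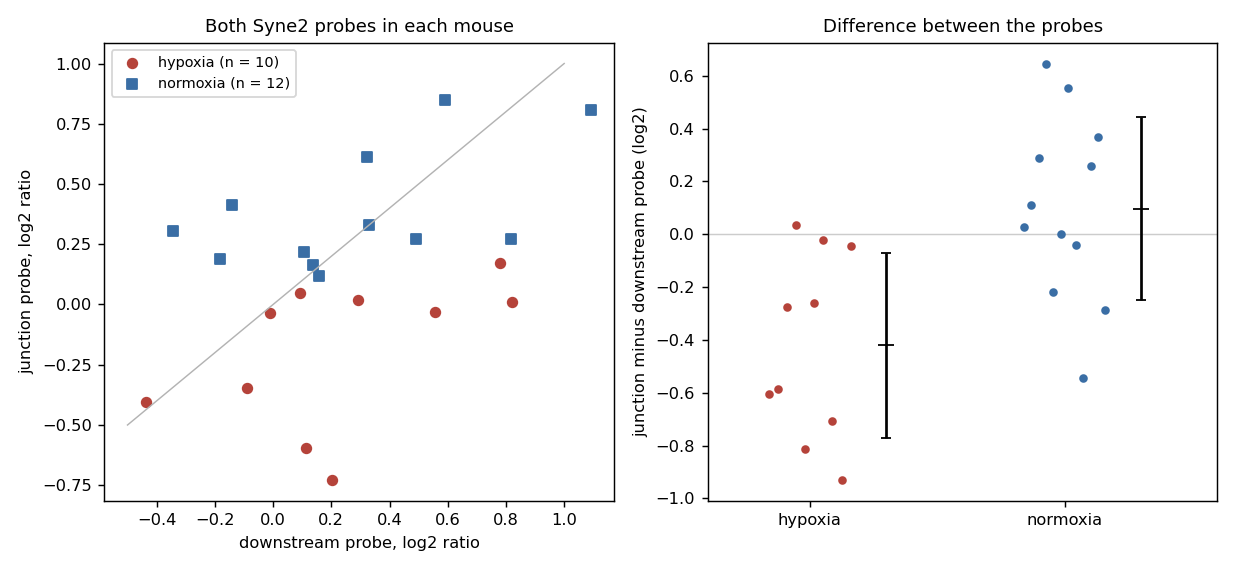
Left, the junction probe's log2 ratio against that of the downstream probe for each mouse, with hypoxia as red circles, normoxia as blue squares and a grey line where both are equal. Right, the junction minus the downstream probe in each mouse, hypoxia left of normoxia, with mean and SD, -0.42 ± 0.35 in hypoxia and 0.10 ± 0.35 in normoxia.

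Whether the probes of a gene move together from mouse to mouse was tested within each group, where the choice of Syne2 plays no part. For Syne2, Pearson's r was 0.52 in hypoxia (n = 10, Spearman's rho 0.48, rho's permutation p = 0.166, r's permutation p = 0.121) and 0.56 in normoxia (n = 12, rho 0.43, rho's permutation p = 0.160, r's permutation p = 0.0586). Neither passed after adjustment over the 4 relations tested (adjusted p = 0.241 in hypoxia and 0.235 in normoxia, two-sided permutation). Without the 2 arrays farthest from the median of the junction probe, r was 0.78 in hypoxia and 0.09 in normoxia, so the normoxia value rests on those arrays. With slide means removed, r was 0.17 in hypoxia and 0.85 in normoxia. For Emd, r was -0.29 in hypoxia (n = 10, rho 0.14, permutation p = 0.400) and 0.18 in normoxia (n = 12, rho 0.02, permutation p = 0.587). Over the 22 arrays with group means removed, the Syne2 probes correlated at 0.53, at percentile 82.4 of the 2554 genes with a pair of tested probes, whose median was 0.22.

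Nesprin-1, the paralog of nesprin-2, was nearly level between the groups. Its tested probe, A_51_P314186 (chr10:5313453-5313512), ran from -0.62 over a median of -0.34 to -0.01 in hypoxia and from -0.58 over a median of -0.19 to 0.01 in normoxia, with a difference of -0.05 (SE 0.09, 95% interval -0.24 to 0.13). The ranges of the groups nearly coincided. A further Syne1 probe, A_55_P2026295 (chr10:5009507-5009566), was well above background in Cy5 on 0 of 10 hypoxia arrays and 1 of 12 normoxia arrays and was not tested.

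The SUN proteins, the inner-membrane anchors of nesprins, also overlapped between the groups. Sun2, at chr15:79554574-79554633, was well above background on all 22 arrays and ran from -0.83 over a median of -0.21 to 0.35 in hypoxia and from -0.84 over a median of -0.24 to -0.01 in normoxia. Hypoxia replicates 1 and 6 lay above all normoxia mice, and the lowest mice of the groups were level. The difference was 0.08 (SE 0.12, 95% interval -0.16 to 0.31). Sun1 at its tested probe, A_55_P2031242 (chr5:139724538-139724597), was above background on 4 of 10 hypoxia arrays and 7 of 12 normoxia arrays. It differed by -0.07 (SE 0.10, 95% interval -0.28 to 0.13), between -0.14 ± 0.21 in hypoxia (SD, n = 10) and -0.07 ± 0.27 in normoxia (SD, n = 12). Its other probe, A_55_P2031248 (chr5:139702685-139702744), was above background on 3 arrays and was not tested.

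Lmna encodes lamins A and C, the A-type lamins that stiffen the nucleus. Its probe, at chr3:88287262-88287321, was above background on all 22 arrays and ran from -0.40 over a median of -0.05 to 0.43 in hypoxia and from -0.53 over a median of -0.18 to 0.38 in normoxia. The ranges were nearly the same, with 3 of 10 hypoxia mice below the normoxia median, and the difference was 0.11 (SE 0.10, 95% interval -0.10 to 0.31). Of the B-type lamins, which stay attached to the membrane through a farnesyl tail, Lmnb2 (chr10:80365545-80365604) was 0.38 ± 0.18 in hypoxia (SD, n = 10) and 0.37 ± 0.30 in normoxia (SD, n = 12). The highest hypoxia mouse reached 0.63 and the highest normoxia mouse 1.04, and the difference was 0.01 (SE 0.11, 95% interval -0.21 to 0.22).

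Lmnb1 was dim in fat. Its probe (chr18:56912871-56912930) was above background on 3 of 10 hypoxia and 3 of 12 normoxia arrays and was not tested. It is printed as 10 spots on each array, which gives a measure of technical error at low signal. The SD of the log2 ratio between single spots of an array had a median of 0.14 (0.08 to 0.22 over the arrays). The SD between mice within groups was 0.19, taken over each mouse's mean of the 10 spots. A mean of spots varies less than a single spot, so these SDs are not directly comparable. Normoxia replicate 1 stood at 0.69, while the others of both groups lay between -0.18 and 0.21.

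Emerin was measured by a pair of tested probes whose positions on chromosome X lie close together. At A_55_P1984333 (chrX:71501087-71501146) the mean was -0.05 ± 0.14 in hypoxia (SD, n = 10) and -0.10 ± 0.21 in normoxia (SD, n = 12), a difference of 0.06 (SE 0.08, 95% interval -0.11 to 0.23). At A_55_P1984337 (chrX:71503023-71503082) the mean was -0.03 ± 0.31 in hypoxia and -0.12 ± 0.24 in normoxia, a difference of 0.10 (SE 0.11, 95% interval -0.13 to 0.33). The hypoxia SD at A_55_P1984337 rests on replicate 4, at -0.78, with the other 9 hypoxia mice between -0.20 and 0.25.

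Of the 12 probes, 9, from 7 genes, passed the filter on dim signal, and among these 4 differences lay below 0 and 5 above. Their median was 0.01, against 0.002 for all tested probes. None of the 9 passed the adjusted threshold, where 0% of all probes did. The junction probe of Syne2 alone had an unadjusted p under 0.05, and it was lower. Of all tested probes 5.21% had one, 2.55% higher and 2.67% lower. No member's groups were free of overlap, which was also true of all 21442 tested probes (0%). No p or count here is evidence for the Syne2 difference, since the gene was picked by it.

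**Figure D4:**
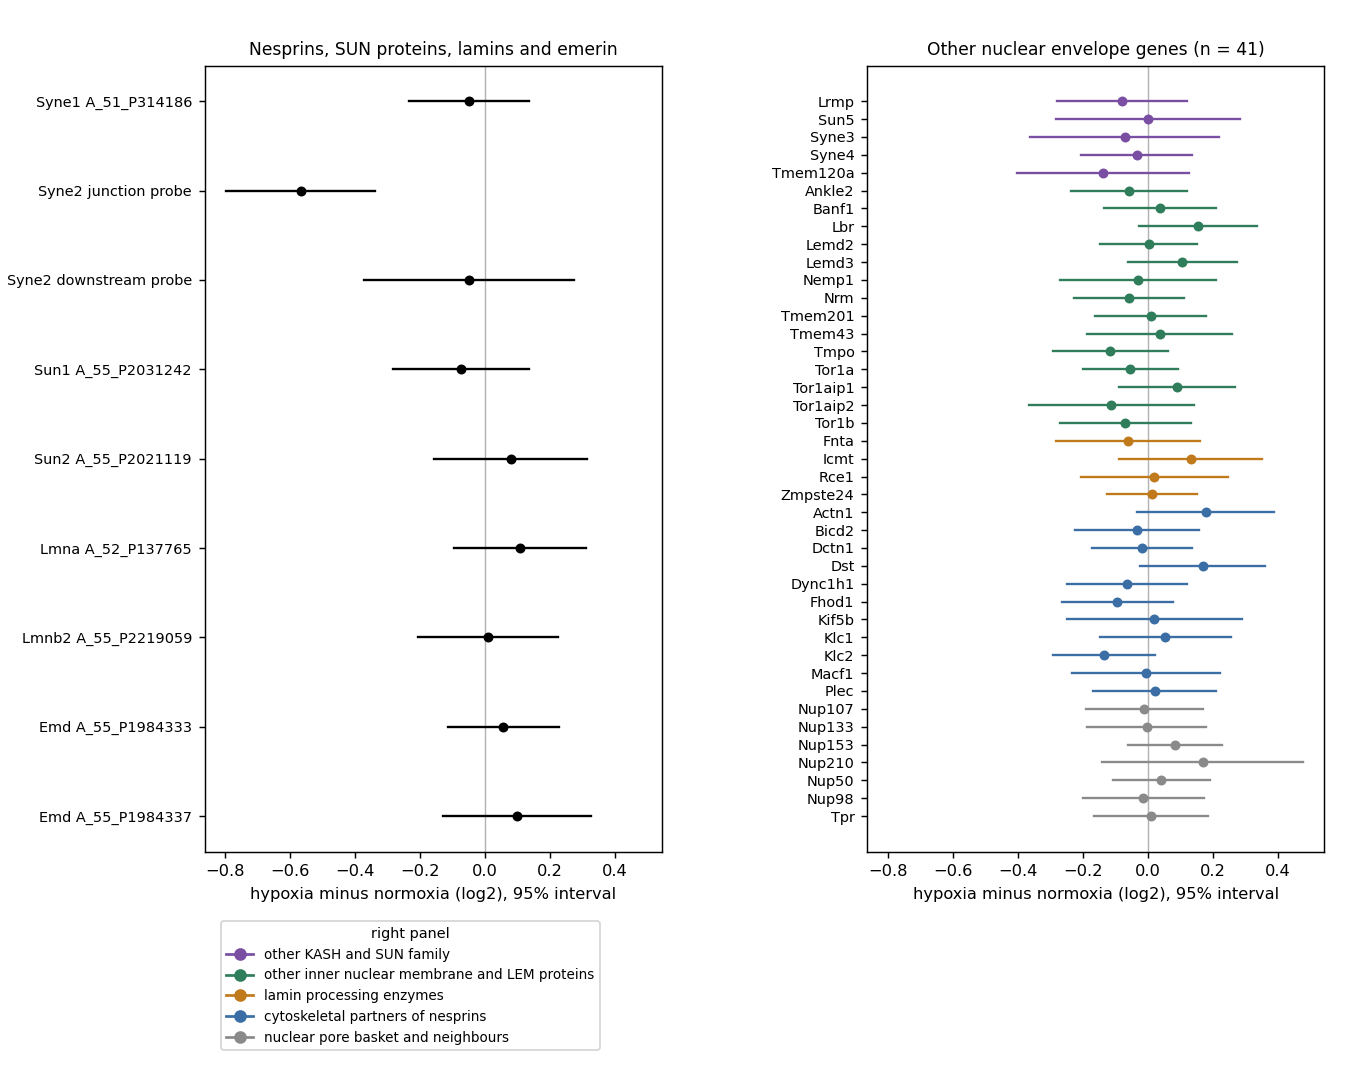
Hypoxia minus normoxia on the log2 scale with 95% intervals, for the 9 tested probes of nesprins, SUN proteins, lamins and emerin (left) and for 41 other genes of the nuclear envelope, coloured by group (right). The Syne2 junction probe stands at -0.57, and the 41 other genes, each by its probe of highest intensity, lie between -0.14 and 0.18.

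Other genes of the nuclear envelope were tested on the same arrays, by the probe of highest intensity for each gene. Of 46 listed genes 41 were tested, and limma called 0 higher and 0 lower (0% of all probes). At these probes 0 had an unadjusted p under 0.05 in limma's test, against 5.21% of all tested probes. The counts are descriptions. The differences had a median of -0.003, with 20 above 0 and 21 below. In the list of other KASH and SUN genes, which also holds the envelope protein Tmem120a, 5 of 7 were measured, and all stood between -0.14 and 0.00, with Syne3, which links to plectin, at -0.07 (SE 0.14) and Syne4, which links to kinesin in hair cells, at -0.03 (SE 0.08). Of inner-membrane and LEM proteins 14 of 16 were measured, with 7 above 0 and 7 below, and the lamin B receptor Lbr was highest at 0.15 (SE 0.09). Of the enzymes that farnesylate and trim lamins 4 of 5 were measured, with the prelamin A protease Zmpste24 at 0.01 (SE 0.07). All 7 nuclear pore genes were measured, from -0.01 to 0.17.

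Among the cytoskeletal partners all 12 were measured, with 6 above 0 and 6 below. Plec, the cytolinker that nesprin-3 binds, was at 0.02 (SE 0.09), the dynein heavy chain Dync1h1 at -0.06 (SE 0.09), the kinesin light chain Klc2, which binds nesprin-2, at -0.13 (SE 0.08), and Fhod1, a formin that binds giant nesprin-2, at -0.09 (SE 0.08). The long cytolinker gene Dst was the only gene of this list with more than 1 tested probe. Its 3 probes stood at 0.17 (SE 0.09), -0.13 (SE 0.12) and -0.30 (SE 0.12), and the last had an unadjusted p of 0.021 that did not pass adjustment.

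Genes next to Syne2 on chromosome 12 were read beside it. Within 500 kb of a Syne2 probe 18 probes were tested, 16 of them outside Syne2. None passed the threshold, but 0% of all tested probes did, so that count says nothing about the region. Whether the region moved as a whole was not tested. The differences of the 16 probes outside Syne2 ran from -0.23 to 0.16. Sgpp1, a sphingosine phosphate phosphatase before the gene, was at 0.14 (SE 0.11), Esr2, the estrogen receptor beta just beyond its end, at -0.16 (SE 0.10), and Mthfd1, a folate enzyme, at 0.16 (SE 0.10). The lowest of them was a noncoding probe without a gene symbol, A_30_P01022466, at -0.23 (SE 0.10).

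**Figure D5:**
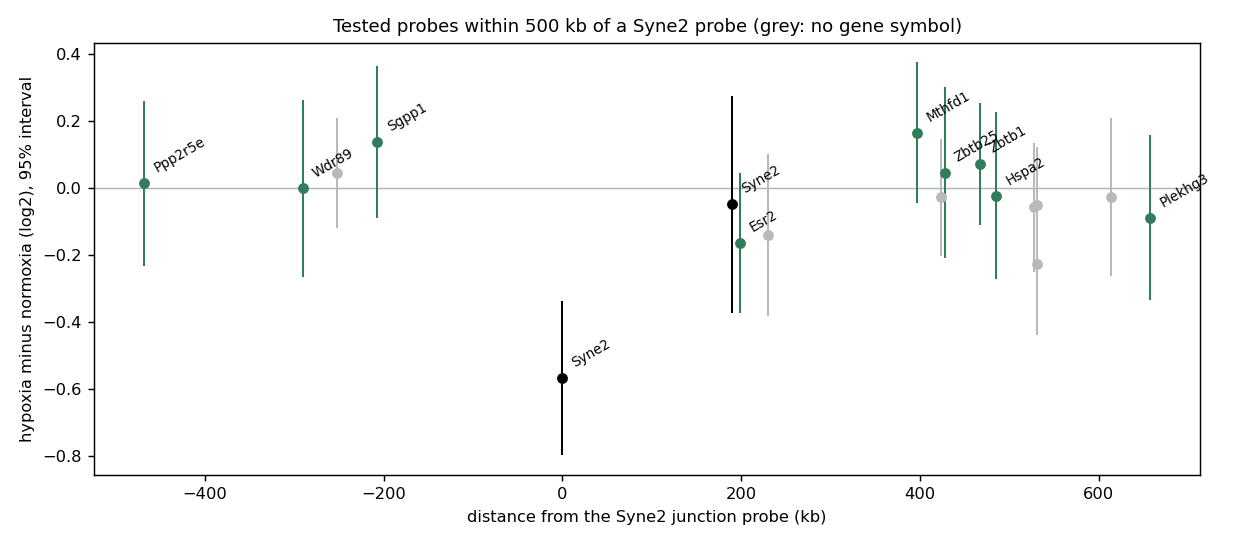
Hypoxia minus normoxia (log2, with 95% intervals) of tested probes by distance in kb from the Syne2 junction probe, with Syne2 in black, genes with a symbol in green and other probes in grey. The junction probe at distance 0 stands at -0.57, and the 16 probes outside Syne2 lie between -0.23 and 0.16.

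The genes whose ratio followed the junction probe most closely from mouse to mouse, with group means removed over 22 arrays, were H3f3b (a histone H3.3 gene, r = 0.77), Morn4 (0.77), the sulfite oxidase gene Suox (0.77), Bclaf1 (0.77), Lrrc51 (0.76), the IGF-1 receptor Igf1r (0.76), the nucleosome-binding Hmgn1 (0.76), Flrt1 (0.74), the chloride channel Ano1 (0.73) and Cep19 (0.72). The most opposite were Serpina3c (-0.80), Cdc42ep2 (-0.79), the peptidase gene Prcp (-0.73), the proton pump subunit Atp6v0a1 (-0.72) and Rtl8c (-0.70). Over 12568 genes the 1st and 99th percentiles of r were -0.50 and 0.58. These r values share the 22 arrays and their normalization and are descriptions. The same 10 genes correlated with the downstream probe at 0.17 to 0.71. Their own differences between hypoxia and normoxia ran from -0.33 (Lrrc51) to 0.05, against -0.57 at the junction probe. Among the envelope genes r with the junction probe was 0.39 for Syne1, -0.43 for Lmna and -0.44 for Sun1. It was -0.17 for Sun2, 0.08 for Lmnb2, and -0.11 and 0.18 for the Emd probes A_55_P1984333 and A_55_P1984337. All of these lie between the percentiles given above.

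Differences between slides were tested as well. In limma's F test over 6 slides 0 of the 9 tested probes passed an adjusted p of 0.05, against 2.19% of all tested probes. Relations with cell types were tested with 12 marker lists in each group, for the brightest tested probe of each of 7 genes, 168 relations in all. By r 0 passed Benjamini-Hochberg adjustment of two-sided permutation p values (smallest adjusted p = 0.212), 0 passed by rho, and 10 had an unadjusted p under 0.05. None of the 24 relations of the Syne2 junction probe had an unadjusted p under 0.05, and r ran from -0.61 (red blood cell list, hypoxia) to 0.46 (adipose progenitor list, hypoxia).

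No marker of the 12 lists passed the adjusted threshold between the groups, and the ranges of the scores below overlapped. The smooth muscle and pericyte score, the mean centred log2 ratio of 7 markers, was 0.18 ± 0.24 (-0.20 to 0.54) in hypoxia and -0.15 ± 0.33 (-0.49 to 0.39) in normoxia, with all 7 markers above 0, 3 of them at an unadjusted p under 0.05. The red blood cell score over 3 markers was 0.25 ± 0.40 (-0.33 to 1.02) in hypoxia and -0.21 ± 0.38 (-0.84 to 0.52) in normoxia, with all 3 above 0 and at an unadjusted p under 0.05. Of all tested probes 5.21% had an unadjusted p under 0.05 in limma's test, 2.55% higher and 2.67% lower, and 49.1% lay below 0. The marker counts are descriptions. The mesothelium score over 6 markers, all above 0, was 0.12 ± 0.42 (-0.47 to 0.90) in hypoxia and -0.10 ± 0.27 (-0.49 to 0.42) in normoxia. The macrophage score over 8 markers, 6 of them above 0, was 0.05 ± 0.18 (-0.16 to 0.39) in hypoxia and -0.04 ± 0.14 (-0.26 to 0.21) in normoxia. The endothelial score over 8 markers, 5 of them above 0, was 0.03 ± 0.10 (-0.14 to 0.20) in hypoxia and -0.03 ± 0.13 (-0.16 to 0.18) in normoxia. The means of these 5 scores were higher in hypoxia, by less than the SD of a group in each but smooth muscle and red blood cells. The adipocyte score over 9 markers, all above 0, was 0.07 ± 0.31 in hypoxia and -0.06 ± 0.28 in normoxia. The B cell score over 3 markers, all above 0, was 0.11 ± 0.36 in hypoxia and -0.09 ± 0.43 in normoxia. The T and NK cell score over 3 markers, all below 0, was -0.04 ± 0.12 in hypoxia and 0.03 ± 0.23 in normoxia. The testis germ cell score over 4 markers was -0.26 ± 0.86 (-1.30 to 1.69) in hypoxia and 0.21 ± 1.48 (-1.60 to 3.26) in normoxia.

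The scores were set against the junction probe within groups, with no relation past adjustment. Among the lists with r below 0 in both groups were macrophage, endothelial, red blood cell, T and NK cell and skeletal muscle. With the T and NK cell score r was -0.56 in hypoxia (permutation p = 0.0927, rho -0.58) and -0.10 in normoxia (permutation p = 0.759, rho 0.01). For skeletal muscle r was -0.11 in hypoxia (rho -0.37) and -0.39 in normoxia (rho -0.42). The adipocyte score was not of 1 sign, with r at 0.03 in hypoxia (permutation p = 0.939, rho -0.13) and -0.32 in normoxia (permutation p = 0.308, rho -0.31). With slide means removed its r was 0.68 in hypoxia and -0.72 in normoxia, and without the 2 farthest arrays -0.18 in hypoxia and 0.42 in normoxia. With the macrophage score r was -0.56 in hypoxia (permutation p = 0.0932, rho -0.54) and -0.49 in normoxia (permutation p = 0.106, rho -0.43), and with slide means removed -0.49 in hypoxia and -0.71 in normoxia. Without the 2 arrays farthest from the median score it was -0.22 in hypoxia and -0.73 in normoxia. With the endothelial score r was -0.53 in hypoxia (permutation p = 0.115, rho -0.48) and -0.47 in normoxia (permutation p = 0.125, rho -0.31), with slide means removed -0.57 in hypoxia and -0.65 in normoxia, and without the 2 farthest arrays -0.31 in hypoxia and -0.30 in normoxia. The adjusted p of each of the 4 macrophage and endothelial relations was 0.637. With the mesothelium score r was 0.28 in hypoxia (permutation p = 0.436, rho 0.22) and 0.09 in normoxia (permutation p = 0.786, rho -0.15), with slide means removed 0.61 in hypoxia and 0.22 in normoxia, and without the 2 farthest arrays -0.05 in hypoxia and -0.04 in normoxia. The junction probe's r with the smooth muscle score was -0.14 in hypoxia (permutation p = 0.701, rho -0.33) and 0.34 in normoxia (permutation p = 0.285, rho 0.06). With slide means removed r was 0.43 in hypoxia and 0.37 in normoxia, and without the 2 arrays farthest from the median score it was -0.16 in hypoxia and 0.12 in normoxia. With the red blood cell score r was -0.61 in hypoxia (permutation p = 0.0603, rho -0.50) and -0.15 in normoxia (permutation p = 0.643, rho -0.31). With slide means removed these were -0.76 in hypoxia and -0.33 in normoxia, and without the 2 farthest arrays -0.43 in hypoxia and -0.22 in normoxia. Both Syne2 probes were also set against the scores over all arrays with group means removed. For macrophages r was -0.53 at the junction probe and -0.66 at the downstream probe, which itself differed by -0.05 between groups. For red blood cells these values were -0.39 and -0.46, and for endothelial cells -0.49 and -0.43. For T and NK cells they were -0.24 and 0.19, and for skeletal muscle -0.24 and -0.06. The part of the scored cells in the Syne2 difference between groups was not tested.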

How the data were processed

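Per the file headers, the deposited scanner files are output of Agilent Feature Extraction 10.7.3.1, and hold mean signals and median backgrounds as intensity values without normalization. Their deposited log10 ratio of Cy5 over Cy3 had its background subtracted and its dyes normalized by that program, per the file headers. A deposited value table holds log2 values with a median of 6.299 on each array. They follow log2 Cy5 (r of 0.902 to 0.999) and are levels, closer to Cy5 than to Cy3 on 20 of 22 arrays. No source used here gives the authors' centring.

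Intensities were corrected with normexp (offset 50) and loess-normalized within arrays, control spots having weight 0 (limma 3.58.1, R 4.3.3). Outlier-flagged spots (non-uniformity or population) were dropped, 15 values among the member spots, and repeated spots were averaged. Testing needed a Cy5 signal well above background on 10 or more arrays and 2 or more values per group. Group was the only term in lmFit and eBayes, with Benjamini-Hochberg adjustment over 21442 probes and a threshold of 0.05. A difference is hypoxia minus normoxia. Correlations used two-sided permutation tests with 100000 resamples in Python 3.11.15. Scripts were tested on simulated data.

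The members and gene lists were chosen with earlier results of these data known. Named genes are the members, the listed genes, the 10 genes most like and the 5 most opposite to the brighter Syne2 probe (mean log2 intensity 10.584 against 10.580 for the other), and neighbours within 500 kb. Samp1 in the list of cytoskeletal partners is a synonym of Tmem201, which stands in 2 lists and was counted once in the total. Names were updated through RefSeq (GRCm38.p6), whose strand of Syne2 was also used. Exon and UTR positions of probes were not analysed here. The series text calls the samples of a group biological replicates. The number of arrays limits the precision.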

Additional observations from a re-analysis of the deposited data

Results flagged for a closer look

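A search for a hypoxia mouse far from the other 9 covered 26 measures, of which chance alone would mark about 1 in 20, and marked 3. At the Emd probe A_55_P1984337 hypoxia replicate 4 had a log2 ratio of -0.78, with the others between -0.20 and 0.25. In the difference between the Emd probes the same mouse stood at -0.96, with the others between -0.09 and 0.32. In the testis germ cell score hypoxia replicate 10 stood at 1.69, with the others between -1.30 and 0.29. Without hypoxia replicate 4 the Emd difference between hypoxia and normoxia at that probe was 0.18 in place of 0.10. The normoxia group, with 12 mice, was not searched.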

How the results depend on the processing

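The junction probe of Syne2 was lower in hypoxia under all 13 other settings, from -0.80 (median centring) to -0.55, and from -0.61 to -0.51 when each mouse was left out. Median centring moved the median of all probes to -0.20, and relative to it the junction probe stood at -0.60. In the deposited value table it stood at -0.64 (SE 0.29). The downstream probe ran from -0.32 to 0.06, with 12 of 13 settings below 0, and from -0.12 to 0.02 with each mouse left out. The settings that change only which probes are tested left each probe's own value unchanged, so their sign was fixed in advance. Slide as a fixed block and leaving out slide 2 gave the same value, -0.60 at the junction probe and -0.13 at the downstream probe. Syne2 was picked by its difference on these arrays, so the counts of settings support nothing. With probes above background on all 22 arrays alone, 7452 of them, 1 of the 2 Syne2 probes passed, the junction probe. Fewer probes entered both the fit and the adjustment there, and what made it pass was not tested. Syne2 was picked by this value, so the call is no evidence for it. That filter gave 7 calls over all probes, against 0, and scale normalization 1, leaving out slide 1 gave 2, hypoxia replicate 7 gave 3, and normoxia replicate 4 or 8 gave 1 each. Leaving out each mouse gave 0 calls among Syne2, the other members and the other envelope genes. Leaving out the 3 arrays brightest in Cy3, added after seeing the data, gave -0.55 for the junction probe.

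Among the other members, median centring gave -0.23 for Sun2, -0.18 for Lmna, -0.19 for Emd A_55_P1984337 and -0.24 for the median of the other envelope genes, each within 0.05 of the shift of all probes. Emd A_55_P1984333 stood at -0.03 in place of 0.06, which is 0.17 above that shift. Feature Extraction's ratio gave -0.49 (SE 0.28) for Sun1, and the cause was not tested. Between slides 7 members passed under median centring, where 84% of all probes did, and 1 with Feature Extraction's ratio, where 14.3% did. With that ratio the Syne2 probes correlated at 0.76 in hypoxia and 0.68 in normoxia (permutation, adjusted p = 0.0367 each), Emd in normoxia at -0.10 in place of 0.18, and 1 marker relation passed in place of 0. The junction probe's r with the macrophage score was then -0.09 in hypoxia and -0.65 in normoxia (unadjusted permutation p = 0.812 and 0.0193). For adipocytes it was -0.19 in hypoxia and -0.74 in normoxia (unadjusted permutation p = 0.608 and 0.0100). For endothelial cells it was -0.47 in hypoxia and -0.63 in normoxia (unadjusted permutation p = 0.168 and 0.0352). The cause was not tested. Replicate numbers do not pair the mice: over 10 pairs the correlation ran from -0.43 to 0.24, 2 were over 0.1, and 0 mice were most like their own number. With the replicate block the junction probe was at -0.56 (SE 0.14), and 0 probes passed.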
